A study of Mus musculus with 12 samples.

Results

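Cry1 and Cry2 encode the 2 cryptochrome proteins of the mouse circadian clock, and their nascent RNA, the RNA still attached to transcribing RNA polymerase II, was measured in the liver around the day. Both genes were chosen by name, and both have a row among the 21490 gene symbols measured. The series held 12 Nascent-Seq libraries from livers of adult C57BL/6 mice aged 3–6 months, with 2 libraries at each of 6 zeitgeber times (ZT), where ZT0 is lights on and ZT12 is lights off. All animals were kept for at least 2 weeks under 12 hr of light and 12 hr of darkness, and none carried a mutation or received a drug, so that time of day was the difference the design set between groups. Nuclei were taken from whole liver, and for a given time fewer cells of a type and less RNA per cell cannot be told apart. Replicate 1 and replicate 2 were separate 6-point series, and how many animals went into a library is not given in the sources used here. All tests therefore took the library, not the animal, as the unit.

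In the clock of most mammalian cells, CLOCK and BMAL1 (the product of Arntl) bind E-box sequences and activate the period (Per) and cryptochrome genes. The PER and CRY proteins later enter the nucleus and inhibit CLOCK and BMAL1, with CRY1 and CRY2 as the main inhibitors of the pair, so that transcription of their own genes falls. Cry1 is also known as a target of the REV-ERB and ROR nuclear receptors, which compete for a sequence called the RORE. In liver the CRY proteins are further known to restrain glucose production.

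Nascent RNA from Cry1 and Cry2 followed different courses. Cry1 was lowest at ZT8, rose at ZT12, and was highest at ZT20, late in the night, with a 10.1-fold range between time-point means. Cry2 was lowest at ZT0 and highest at ZT12, when the lights went off, with a 2.48-fold range. Cry2 gave the higher signal in 11 of 12 libraries, and the share of Cry1 in the summed signal of both genes ran from 7.5% in a ZT8 library to 52.7% in a ZT20 library.

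Cry1 (ENSMUSG00000020038.9 in the GENCODE annotation) lies on the minus strand of chromosome 10 of the mm9 genome and was measured between 84594445 and 84647799. It is a protein-coding gene with 13 exons, whose merged length is 3014 bp. Cry2 (ENSMUSG00000068742.5) lies on the minus strand of chromosome 2, between 92243804 and 92274185 in the deposited data, and is also protein coding, with 13 merged exons of 6320 bp. The 250 bases before each start site, from RefSeq on the GRCm38.p6 build, are shown because the E-box is the element through which CLOCK and BMAL1 act on this loop. Capitals mark the E-box CACGTG and its variant CACGTT, read on either strand, so that AACGTG is the variant on the opposite strand. The windows are chr10:85185055-85185304 for Cry1 and chr2:92434070-92434319 for Cry2, both on the minus strand and written 5′ to 3′.
Cry1 promoter: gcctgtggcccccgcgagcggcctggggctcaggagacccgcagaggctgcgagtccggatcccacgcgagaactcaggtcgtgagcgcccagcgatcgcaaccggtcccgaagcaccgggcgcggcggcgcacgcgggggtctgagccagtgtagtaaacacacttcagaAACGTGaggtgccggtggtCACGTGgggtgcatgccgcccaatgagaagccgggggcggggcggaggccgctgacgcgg
Cry2 promoter: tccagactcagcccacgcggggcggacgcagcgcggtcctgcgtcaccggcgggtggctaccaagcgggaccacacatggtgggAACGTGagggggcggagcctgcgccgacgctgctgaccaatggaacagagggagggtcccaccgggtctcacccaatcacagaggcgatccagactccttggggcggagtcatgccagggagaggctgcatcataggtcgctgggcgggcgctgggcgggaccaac

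The 2 promoters shared a high content of G and C, at 71.2% for Cry1 and 68.8% for Cry2, with 31 and 22 CpG dinucleotides. The Cry1 window held 1 E-box, with its first base 60 bp before the start, and 1 variant at 79 bp, and the Cry2 window held no E-box and 1 variant at 166 bp. Of 32851 promoters of the same length, 6.02% held the E-box and 3.85% the variant. Neither window held the D-box TTATGTAA, found in 0.819% of promoters, its variant TTACGTAA, found in 0.113%, the cAMP response element TGACGTCA, found in 1.55%, or the TATA box TATAAA, found in 12.4%. GC boxes (GGGCGG) numbered 3 for Cry1 and 5 for Cry2, against at least 1 in 32.7% of promoters, and CCAAT boxes 1 and 2, against 33.8%. Both strands were searched, and a match is a stretch of letters, not a bound site.

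The RORE consensus was absent from both promoter windows, as from all but 0.332% of promoters, so the introns were searched too. Cry1 held 2 matches in an intron, 23140 and 23085 bp from the start, 55 bp apart and on opposite strands. Cry2 held 1 match, in an intron 3108 bp from the start. Over the spans of 4306 genes, there were 1.84 matches per 100 kb. The matches are shown in capitals in the mm9 sequence, at chr10:84624639-84624734 for Cry1 and chr2:92271077-92271107 for Cry2, on the strand of the gene.
Cry1 intron: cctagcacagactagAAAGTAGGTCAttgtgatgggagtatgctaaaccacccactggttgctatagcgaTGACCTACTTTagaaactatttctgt
Cry2 intron: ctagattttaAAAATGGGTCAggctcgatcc

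Signal was given as reads per base pair (rpbp) after the authors had scaled the libraries to the same number of reads, so that levels of genes of different length can be compared. Cry1 gave 2.8 and 3.6 rpbp in the ZT0 libraries, replicate 1 first, 2.6 and 4.0 at ZT4, 1.2 and 1.3 at ZT8, 5.5 and 5.8 at ZT12, 6.2 and 4.8 at ZT16, and 11.3 and 13.9 at ZT20. Both ZT20 libraries were therefore above the other 10, and both ZT8 libraries were below them. The means were 3.20 ± 0.566 (SD, n = 2) at ZT0, 3.30 ± 0.990 at ZT4, 1.25 ± 0.0707 at ZT8, 5.65 ± 0.212 at ZT12, 5.50 ± 0.990 at ZT16 and 12.6 ± 1.84 at ZT20. The means of ZT0 and ZT4 were alike, as were those of ZT12 and ZT16, with ZT8 below the first pair and ZT20 above the second.

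Cry2 gave 6.7 and 9.4 rpbp at ZT0, 13.7 and 11.3 at ZT4, 14.8 and 10.1 at ZT8, 21.2 and 18.7 at ZT12, 12.9 and 11.3 at ZT16, and 12.8 and 12.5 at ZT20. Both ZT12 libraries were above the other 10 and both ZT0 libraries below them, while the libraries of ZT4, ZT8, ZT16 and ZT20 overlapped. The means were 8.05 ± 1.91 (SD, n = 2) at ZT0, 12.5 ± 1.697 at ZT4, 12.45 ± 3.32 at ZT8, 19.95 ± 1.77 at ZT12, 12.1 ± 1.13 at ZT16 and 12.65 ± 0.212 at ZT20. By these means of 2 libraries, Cry2 had 1 high time, 1 low time and similar levels at the other times.

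**Figure D1:**
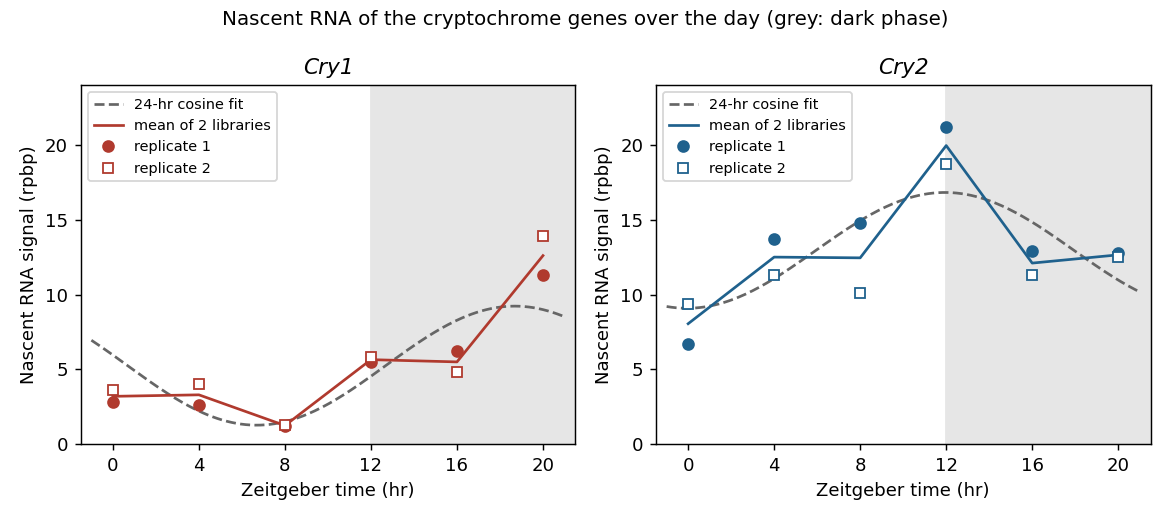
Nascent RNA signal (rpbp) of Cry1 and Cry2 against zeitgeber time (hr), with 1 point per library, the line through the mean of 2 libraries and the fitted 24-hr cosine dashed. Cry1 peaked above its cosine at ZT20, where both libraries were at 11.3 and 13.9 rpbp, and Cry2 above its cosine at ZT12.

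Averaged over the 12 libraries, Cry1 stood at 5.25 ± 3.84 rpbp (SD, n = 12) and Cry2 at 12.95 ± 3.94. These means lay above those of 21.8% and 76.8% of the 6284 genes tested, which were those above 6 rpbp in at least 1 library. Cry2 was above that level in all 12 libraries, and Cry1 in 3, the 2 of ZT20 and 1 of ZT16, so Cry1 was tested only because of the times at which it was high. The coefficient of variation over libraries was 73.1% for Cry1 and 30.4% for Cry2, with a median of 25.2% over tested genes. Time of day held 96.5% of the variance of Cry1 and 87.1% of that of Cry2, against a median of 63.3%. The range between time-point means was wider than that of 98.1% of tested genes for Cry1 and of 80.3% for Cry2. This range is a ratio of highest to lowest mean. The shares are over the 6272 tested genes with signal at every time point.

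To ask whether each gene cycled with the day, the share of variance in a 24-hr cosine (F24) was compared with that after shuffling the 12 values, in a one-sided permutation test. Genes were called rhythmic at p below 0.05, F24 above 0.45 and a ratio of highest to lowest library above 1.5, and 15.2% of tested genes met these limits. Cry1 met them, with F24 = 0.584 (permutation p = 0.00685), a phase of 18.7 hr and an amplitude of 3.98 rpbp, which was 75.7% of its mean. Cry2 also met them, with F24 = 0.526 (permutation p = 0.0256), a phase of 11.9 hr and an amplitude of 3.87 rpbp, which was 29.9% of its mean. In absolute units the 2 rhythms were thus of nearly equal size, on means that differed. Neither gene reached the limits for a strong rhythm, F24 above 0.6 with a somewhat higher ratio, met by 6.38% of tested genes. Both reached them once libraries were rescaled by their median ratio to the geometric mean, at F24 = 0.631 for Cry1 and 0.645 for Cry2. Adjusted for the 6284 tests by the Benjamini-Hochberg method, the permutation p was 0.143 for Cry1 and 0.229 for Cry2, and neither was among the 0.621% of genes called that way.

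The remaining variance lay less in the replicates than in the shape of the daily course. Components of 12 and 8 hr held 10.4% and 27.7% of the variance of Cry1, whose late peak and narrow trough depart from a cosine, and spread within replicate pairs held 3.52%. In Cry2, whose signal stood out at 1 time point, the corresponding shares were 3.95%, 30.5% and 12.9%. The call of Cry1 was kept in 12 of 12 fits that left out 1 library, with a phase between 18.2 and 19.3 hr. Cry2 kept its call in 8 of 12, with a phase between 11.2 and 12.6 hr, and lost it without either ZT0 library or either ZT12 library, where p rose to between 0.0607 and 0.0981 in the same permutation test. Taken alone, a series of 6 libraries cannot give an exact permutation p below 0.0167. Cry1 peaked at 18.2 hr in series 1 (exact p = 0.133) and at 19.2 hr in series 2 (exact p = 0.267), and Cry2 at 11.4 hr (exact p = 0.05) and 13.0 hr (exact p = 0.433). Neither gene was called in either series, against 4.14% and 2.72% of tested genes.

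The 4 libraries of ZT8 and ZT20 were sequenced in 2 lanes and the other 8 in 1, and the lowest and highest levels of Cry1 were both among the 4. With lanes as a block, so that values were shuffled only among libraries with the same number of lanes, Cry1 had F24 = 0.652 and was no longer called (permutation p = 0.110), whereas Cry2 was (permutation p = 0.0461). Number of lanes and time of day cannot be told apart across these 2 sets of times, but within the 2-lane libraries the 2 at ZT20 were at 11.3 and 13.9 rpbp and the 2 at ZT8 at 1.2 and 1.3.

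Differences of any shape were tested by fitting limma to log2(rpbp + 1) for all 6284 genes, of which its F-test called 7.65% after Benjamini-Hochberg adjustment. Cry1 differed between time points (limma F-test, adjusted p = 0.00301), and Cry2 did not pass (limma F-test, adjusted p = 0.0787). In the 4 time points sequenced in 1 lane, which leaves out both the peak and the trough of Cry1, adjusted p was 0.205 for Cry1 and 0.0920 for Cry2, with 1.91% of genes called by limma. Fold changes on this scale understate the change of genes with little signal.

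Comparisons of times 12 hr apart showed where each rhythm lay, and each was between libraries with the same number of lanes. From ZT8 to ZT20, Cry1 rose by 2.59 ± 0.22 (SE) on the log2 scale (limma, adjusted p = 0.00192), among 1.58% of genes called in that comparison, and Cry2 differed by 0.04, with a 95% interval of −0.47 to 0.56. From ZT0 to ZT12, Cry2 rose by 1.22 ± 0.23 (limma, adjusted p = 0.0176), among 4.44% of genes called, and the difference of Cry1 was 0.67 ± 0.22 (adjusted p = 0.129). The adjusted p of Cry2 was 0.168 without replicate 1 of ZT0, 0.113 without replicate 1 of ZT12 and 0.0643 without replicate 2 of ZT12. From ZT4 to ZT16, where 2.1% of genes were called, the difference was 0.61 ± 0.22 for Cry1 (limma, adjusted p = 0.185) and −0.04 for Cry2, with a 95% interval of −0.56 to 0.48. The largest change of each gene thus fell in a comparison in which the other gene was not called.

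Steps of 4 hr gave the order of events. Cry1 rose by 1.56 ± 0.22 on the log2 scale from ZT8 to ZT12 (limma, adjusted p = 0.00940), a step at which 8.67% of tested genes were called. From ZT12 to ZT16 it differed by −0.04, with a 95% interval of −0.54 to 0.45 and 0.414% of genes called. The difference from ZT16 to ZT20, of 1.07 ± 0.22, missed the threshold (limma, adjusted p = 0.0509, with 1.3% of genes called) and passed it in 4 of 20 alternative fits. Cry1 then fell from ZT20 to ZT0, with a 95% interval of −2.19 to −1.20 on the log2 scale (limma, adjusted p = 0.0334), as 1 of 4 genes called at that step, or 0.0637%, and the call was lost in 9 of 20 alternative fits. The steps into and out of ZT8 and those into and out of ZT20 join libraries with different numbers of lanes, so that lanes and time cannot be told apart there.

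The difference of Cry1 from ZT4 to ZT8, −0.92 ± 0.22 on the log2 scale, was not called (limma, adjusted p = 0.101), with 0.939% of genes called. Between ZT0 and ZT4 limma called 0% of genes, with 445 at an unadjusted p below 0.05, and Cry1 differed there by 0.02 with a 95% interval of −0.47 to 0.52. For Cry2 no step of 4 hr passed the adjusted threshold with all 12 libraries. Its largest, from ZT8 to ZT12 and from ZT12 to ZT16, were 0.66 ± 0.23 (limma, adjusted p = 0.0971) and −0.68 ± 0.23 (limma, adjusted p = 0.265). Without replicate 1 of ZT8, the first of these was 0.91 and passed (limma, adjusted p = 0.0395), and without replicate 2 of ZT8 it was 0.40 (limma, adjusted p = 0.488).

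Both genes were also compared within each library. The share of Cry1 in the sum of both was 29.5% and 27.7% in the ZT0 libraries, 16% and 26.1% at ZT4, 7.5% and 11.4% at ZT8, 20.6% and 23.7% at ZT12, 32.5% and 29.8% at ZT16, and 46.9% and 52.7% at ZT20. The signals were nearly equal at ZT20, whereas Cry2 gave several times the signal of Cry1 at ZT8, and the mean share was higher at each of ZT12, ZT16 and ZT20 than at the time before. The log2 ratio of Cry1 to Cry2 followed a 24-hr cosine with F24 = 0.852 and a peak at 19.9 hr (permutation p = 4.0e-05, adjusted p = 0.00044 over 11 ratios). With lanes as a block the permutation p was 0.00423, adjusted to 0.00775. The time courses of the 2 genes therefore differed, with a 24-hr pattern in their ratio that shuffled values rarely matched.

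Over all 12 libraries, Cry2 had 3.01 times the nascent signal of Cry1 per base pair, with a mean log2 ratio of −1.59 ± 1.06 (SD, n = 12; two-sided exact sign-flip permutation p = 0.000977). The exception in direction was replicate 2 of ZT20. Leaving out 1 library at a time moved the mean log2 ratio between −1.748 and −1.40. The SD, and the spread behind the sign-flip test, include the change of the ratio over the day. A gene on the opposite strand overlaps Cry2 and none overlaps Cry1. The libraries used here did not record the strand, so part of the Cry2 signal may come from that gene.

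**Figure D2:**
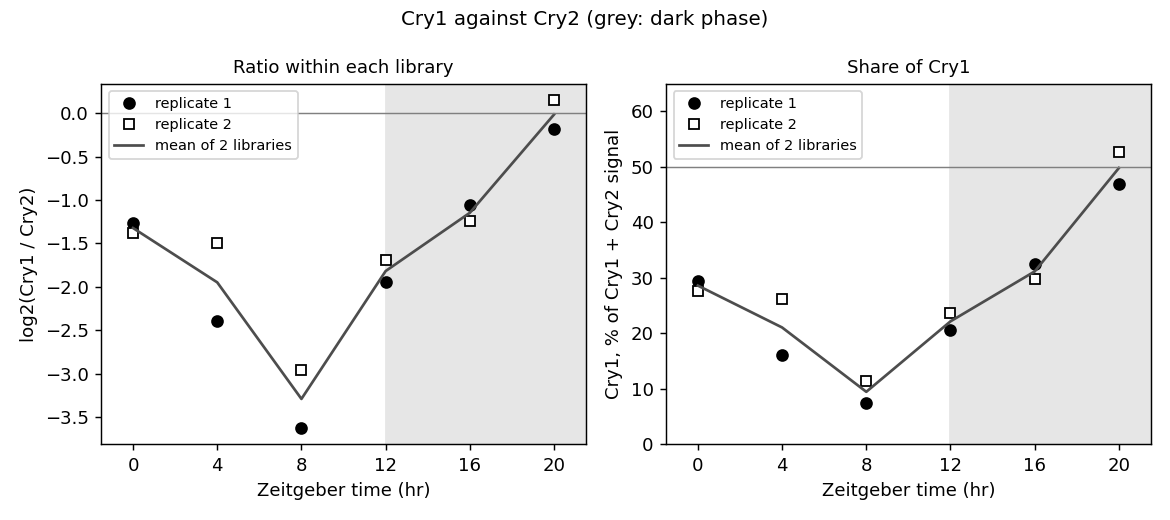
The log2 ratio of Cry1 to Cry2 signal (left) and the share of Cry1 in their summed signal (right, %) against zeitgeber time (hr), with 1 point per library and lines through the means of 2. The share was lowest at ZT8, at 7.5% and 11.4%, and stood at 46.9% and 52.7% at ZT20.

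The phases were then set beside those of the partners and regulators of the CRY proteins. All 3 period genes, whose proteins bind CRY and carry it to the nucleus, were strongly rhythmic, against 6.38% of all tested genes. Their phases were 12.8 hr for Per1, 14.3 hr for Per2 and 10.8 hr for Per3. Cry2, at 11.9 hr, lay among them, and Cry1, at 18.7 hr, came later than each. All 3 activator genes were strongly rhythmic as well, at 22.5 hr for Arntl, 22.5 hr for Clock and 22.8 hr for Npas2, a relative of Clock. By fitted phase, Cry1 thus came between the period genes and the activators. By time-point means, however, Arntl and Clock were highest at ZT20, as was Cry1, and Npas2 at ZT0. Arntl had its highest and lowest time-point means at the times of Cry1, ZT20 and ZT8. Its single libraries ranged from 0.7 to 10.4 rpbp.

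Whether the cryptochromes kept a constant ratio to these genes was tested through F24 of the log2 ratios. The partner genes were themselves strongly rhythmic, so a ratio can cycle through the partner alone. A cycling ratio therefore does not show a rhythm of a cryptochrome. Each of the 10 ratios varied over 24 hr at an adjusted permutation p below the threshold, the weakest being Cry1 to Per2 (F24 = 0.628, adjusted permutation p = 0.0161). With lanes as a block that ratio was lost (adjusted permutation p = 0.0562) and the other 9 were kept. The ratio of Cry1 to Arntl peaked at 13.1 hr (F24 = 0.811, adjusted permutation p = 0.000907), and that of Cry1 to Per1 at 23.4 hr (F24 = 0.844, adjusted permutation p = 0.00246). Cry2 shared a phase near lights off with Per1, but their ratio still cycled, with a peak at 1.87 hr (F24 = 0.832, adjusted permutation p = 0.000907). Per1 ranged from 0.5 to 30.4 rpbp over the libraries, against 6.7 to 21.2 rpbp for Cry2. Cry2 was the cryptochrome nearer in phase to the period genes, with a far smaller relative range.

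Genes that act on the RORE were called rhythmic in 3 of 3 tested cases, against 15.2% of all tested genes. The list was drawn up with earlier results of these data known. The repressors of this element were Nr1d1 (REV-ERB alpha) at 6.22 hr and Nr1d2 (REV-ERB beta) at 8.54 hr, both highest at ZT8, where Cry1 was lowest. Rora, an activator through this element, was at 2.23 hr and only just met the limits (F24 = 0.493, permutation p = 0.0490). Rorb has no row and was not analysed here. Among D-box factors, Dbp (8.38 hr) and Tef (10.1 hr) were strongly rhythmic, Nfil3, a repressor of the same element, was rhythmic at 21.2 hr, and Hlf was not called (F24 = 0.308).

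Of 8 genes listed for their part in the turnover of CRY proteins, 5 were tested and 1 was called, against 15.2% of all tested genes. Usp2, a deubiquitinase, peaked at 12.4 hr (F24 = 0.724), near Cry2. The deubiquitinase Usp7 (F24 = 0.407) and the ligase genes Ddb1, Cul1 and Cul4a were not called. Among 5 tested genes of 8 in the list of clock kinases and their ligases, Btrc alone was called, at 6.24 hr. Shares of 1 in 5 lie near that background and show nothing particular to either list. Bhlhb2, the 1 E-box repressor tested, gave F24 = 0.0305, with single libraries between 5.9 and 34.3 rpbp. None of 3 tested genes through which CRY proteins act on glucose production was called, against 15.2% of all tested genes. Pck1 was at F24 = 0.273, G6pc at 0.145 and the glucocorticoid receptor gene Nr3c1 at 0.0514. A count of 0 in 3 lies near that background and shows nothing particular to this list. Over all lists, 14 of 27 tested genes were rhythmic and 11 strongly so, against 15.2% and 6.38% of all tested genes, with a median F24 of 0.493 against 0.222 over all tested genes. Many listed genes are known clock genes, and the lists were drawn up with earlier results of these data known.

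**Figure D3:**
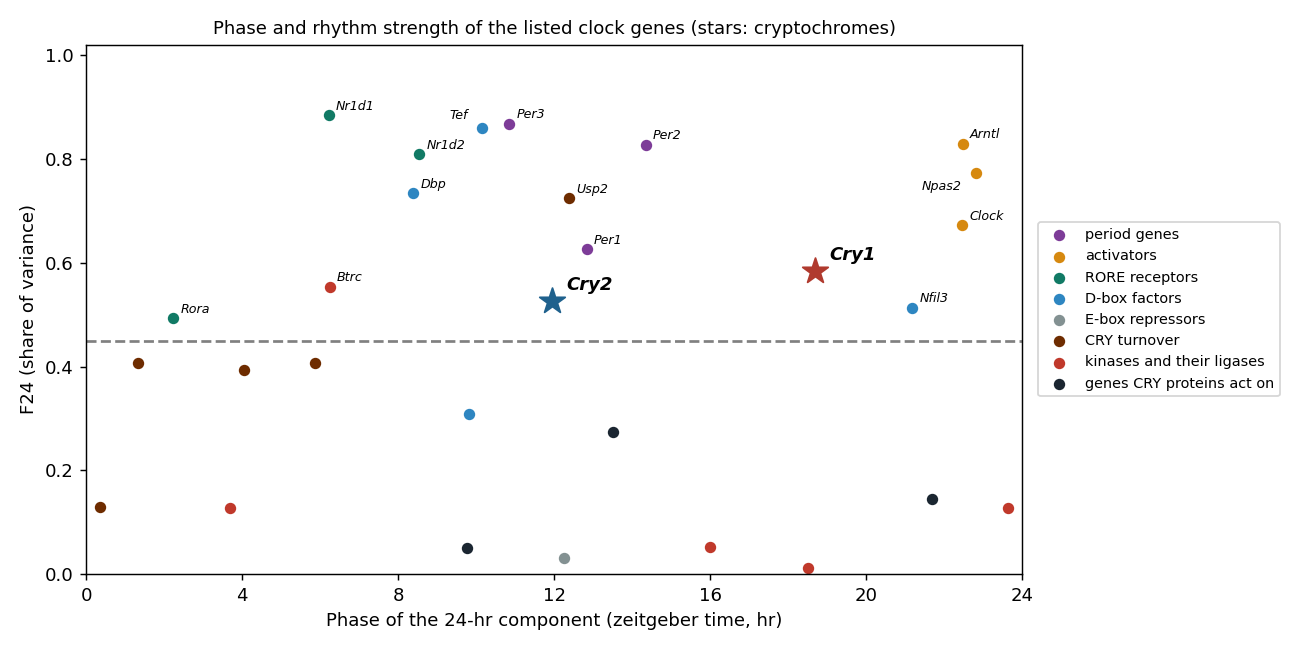
F24 (share of variance) against phase (hr) of Cry1 and Cry2 (stars) and of the tested genes of the clock lists (points, coloured by list, named where called rhythmic), with the F24 limit of 0.45 dashed. By fitted phase, Cry2 lay at 11.9 hr among the period genes and Cry1 at 18.7 hr, between the period genes and the activators.

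The surroundings of each gene were examined because the libraries used here did not record the strand. Signal from overlapping genes cannot be told apart in them. The study also made strand-specific libraries of the first replicate, which were not used here. GENCODE places no other gene over Cry1. Cry2 is overlapped by a long intergenic RNA on the opposite strand, D930015M05Rik, which has no row of its own. A second symbol, mPHLL2, covers the first part of Cry2, from 92265311 to 92274185, where Cry2 also ends in the deposited data. The same reads may be counted in both, and mPHLL2 may be a second entry of the same gene. It ranged from 6.2 to 18.6 rpbp and had a phase of 11.01 hr, with F24 = 0.473 (permutation p = 0.0512), just outside the call.

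Downstream of Cry1, 3698 bp beyond its end and on the same strand, lies Mterfd3, a gene of the mitochondrial transcription termination factor family. It stayed below 6 rpbp in every library and was not among the tested genes. Mterfd3 gave 1.6 and 2.3 rpbp at ZT0, 1.5 and 2.2 at ZT4, 2.2 and 2.5 at ZT8, 2.6 and 1.3 at ZT12, 2.5 and 1.9 at ZT16, and 4.1 and 5.8 at ZT20. Both ZT20 libraries were above the other 10, as for Cry1, but the low level of Cry1 at ZT8 had no counterpart in Mterfd3. The 24-hr component of Mterfd3 had F24 = 0.301 and a phase of 19.6 hr, against 18.7 hr for Cry1, and its rhythm was not tested. At a minimum of 3 rpbp the difference between time points was not called (limma F-test, adjusted p = 0.123). The other neighbours had little signal, with AK165297 upstream of Cry1 at 0 to 0.1 rpbp, Mapk8ip1 downstream of Cry2 at 1.3 to 2.6 and Slc35c1 upstream of it at 1.0 to 2.9. In both genes beside Cry2 the 24-hr component was small, at F24 = 0.135 for Mapk8ip1 and 0.0129 for Slc35c1.

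**Figure D4:**
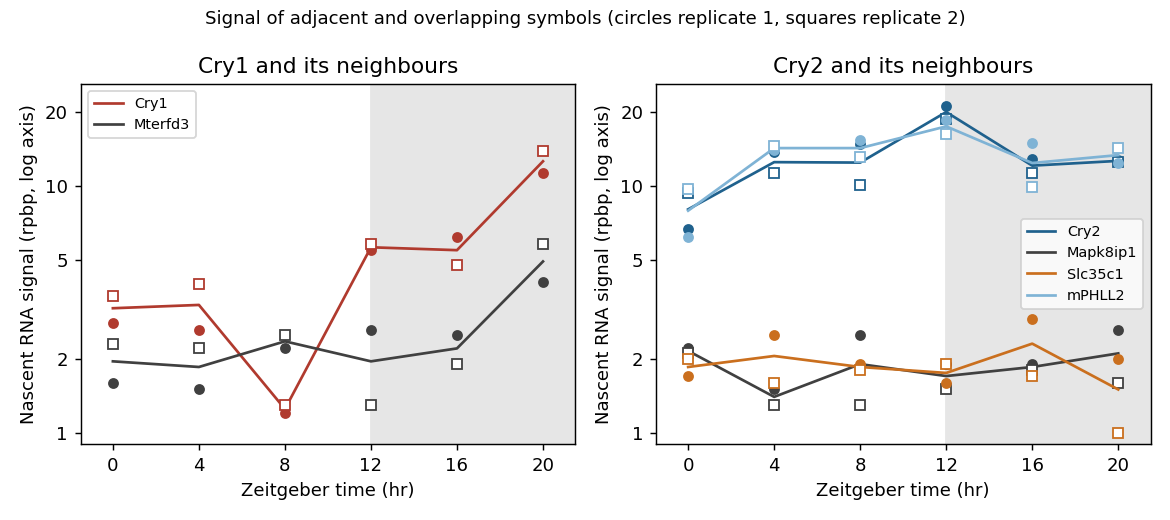
Signal (rpbp, log axis) of Cry1 with its downstream neighbour Mterfd3 (left) and of Cry2 with its neighbours Mapk8ip1 and Slc35c1 and the overlapping mPHLL2 (right) against zeitgeber time (hr), with 1 point per library and lines through means. Mterfd3 was highest at ZT20, at 4.1 and 5.8 rpbp, and mPHLL2 ran close to Cry2.

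Genes whose courses most resembled those of the cryptochromes were ranked by Pearson correlation of log2 values over the 12 libraries, among 4818 loci, as a description. The courses nearest to Cry1 were those of Skil, a regulator of SMAD signalling (r = 0.906), Paics, an enzyme of purine synthesis (r = 0.88), Agt, the gene of angiotensinogen (r = 0.878), Abtb2 (r = 0.83) and Csad, an enzyme of taurine synthesis (r = 0.826). Those nearest to Cry2 were AK212710 (r = 0.942), Gpld1, a phospholipase that releases anchored proteins (r = 0.93), Igfbp4, which binds insulin-like growth factors (r = 0.924), Gne, an enzyme of sialic acid synthesis (r = 0.923), and AK016225 (r = 0.917). No gene of the clock lists was among these 10, and points of 1 library share its depth and scaling.

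The deposited table holds scaled signal without the number of reads per library, which was not used here, and the summed signal of all symbols ran from 118342 to 160545 rpbp. Hepatocyte markers summed to between 371.7 rpbp, in replicate 2 of ZT16, and 1498.1 rpbp, in replicate 2 of ZT20, where Cry1 was highest, with 4 of 5 above 6 rpbp in at least 1 library. Markers of other liver cells were far lower, with ranges of 11.5 to 30.7 rpbp for Kupffer cells and macrophages, 8.1 to 20.4 for endothelium, 4.1 to 8.7 for stellate cells, 2.0 to 7.2 for blood and 0 to 0.4 for bile duct. The part of these differences in the courses of Cry1 and Cry2 was not tested. Replicate 2 of ZT16 was the library whose genes lay lowest as a whole, with a median deviation of −0.20 on the log2 scale. Leaving it out gave F24 = 0.684 for Cry1 and 0.617 for Cry2, both then within the limits of a strong rhythm.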

How the data were processed

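Nascent RNA was measured in 12 mouse liver libraries (6 time points, 2 replicates each). Per the labels, nuclei were lysed, RNA was recovered from the chromatin pellet, polyadenylated RNA was removed, and libraries were sequenced on a Genome Analyzer II. The authors processed reads with CASAVA 1.7 and TopHat against mm9, kept uniquely mapped reads and deposited, per gene symbol, a signal in reads per base pair over merged exons, with the lanes of a library pooled, scaled to the same number of reads, with 1 decimal and without strand. Numbers of reads per library were not used here. Further columns hold the authors' own rhythm score, phase and p-value and were not used. Blank lines (27919) were dropped.

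Tests were run on each gene that exceeded 6 rpbp in any library. F24 was computed on linear values, with 100000 permutations, and limits follow the methods of the study. Differences between time points used limma 3.58.1 (R 4.3.3) on log2(rpbp + 1), fitted over all 12 libraries. Ratios used log2 values with a pseudocount of 1 (0 for the level, tested over 4096 sign patterns). The genes, lists and neighbours named were Cry1, Cry2, 36 listed clock genes (a few others are not reported here), the nearest or overlapping symbols and the 5 most correlated genes each, 1 symbol per locus. The members and lists were chosen with earlier results of these data known. Exon content of G and C came from GENCODE and the mm9 genome for 97.9% of tested genes. Promoter sequences came from RefSeq and matched both members. Alternatives changed the threshold, pseudocount, scaling, blocks and libraries used. Scripts were tested on simulated data. No replicate pair shared the value of more than 2.58% of tested symbols, so no library was counted as a duplicate.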

Additional observations from a re-analysis of the deposited data

How the results depend on the processing

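The rhythm of Cry1 kept its call in 21 of 26 alternatives and that of Cry2 in 18 of 26, some of which could not change it. Both lost it with adjusted p (0.143 and 0.229), with a limma test of the cosine terms (adjusted p = 0.0512 and 0.200, and 163 genes called) and in series 1 alone (F24 = 0.708 and 0.722) or series 2 alone (F24 = 0.523 and 0.415). Cry1 also lost it with lanes as a block (F24 = 0.652). Without 1 library, F24 ran from 0.507 to 0.684 for Cry1 and from 0.427 to 0.693 for Cry2. A mean above 6 rpbp left Cry1 untested, and 1 symbol per locus left Cry2 untested, since mPHLL2 then stood for the locus. That symbol was not itself called rhythmic (F24 = 0.473, permutation p = 0.0512). Where a gene stayed tested, a change of threshold or of symbols per locus could not alter its F24 or permutation p. Those alternatives therefore kept the call by construction. The 954 rhythmic genes became 509 at 12 rpbp, 39 with adjusted p, and 260 and 171 in the single series, and the 14 listed clock genes called became 6 with adjusted p and 6 and 4 in the single series. Without 1 library these counts ran from 799 to 1240 and from 11 to 14.

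In limma, Cry1 differed between time points in 20 of 21 alternatives, with adjusted p between 0.00246 and 0.0149 without 1 library, the exception being the 4 time points of 1 lane (0.205), an alternative chosen after seeing the data. Cry2 passed with the GC trend removed (0.0391) and ran from 0.0534 to 0.231 without 1 library. The 481 genes called became 317 at 1 symbol per locus, 73 with no filter and 120 in 1-lane time points, and 167 to 663 without 1 library, the lowest without replicate 1 of ZT0. Without 1 library, the genes called ran from 25 to 391 between ZT0 and ZT12 (279 with all), from 22 to 259 between ZT4 and ZT16 (132), from 4 to 166 between ZT8 and ZT20 (99) and from 38 to 1088 between ZT8 and ZT12 (545), lowest without replicate 1 of ZT0, of ZT4 and of ZT20 and replicate 2 of ZT8, so the shares of genes called at single contrasts are loose. The rise of Cry2 from ZT0 to ZT12 was 1.22 in log2 with no filter, where adjusted p was 0.0686, and 1.008 to 1.44 without 1 library. The ratio of Cry1 to Cry2 kept its pattern in 16 of 16 alternatives and its level in 14 of 14, with F24 of the ratio from 0.820 to 0.910 and the mean log2 ratio from −1.748 to −1.40 without 1 library. The cause of these changes was not tested.

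Correlations of replicate deviations between times ran from −0.117 to 0.32, and 5 of 15 exceeded 0.1. Whether replicate numbers pair the libraries was not settled by these values, and the main tests did not use the numbers. With the replicate block, Cry1 had F24 = 0.589 (permutation p = 0.0138), Cry2 F24 = 0.547 (permutation p = 0.0223), and 978 genes were called. The number of reads behind a value was not used here, and 2 libraries per time limit the precision of each mean.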
